A study of Mus musculus with 6 samples.

Results

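The promoters of the genes for the ribosomal proteins were examined as a housekeeping reference for chromatin accessibility in the mouse limb bud. A peak was taken where its midpoint lay within 1 kb of an annotated transcript start of an autosomal protein-coding gene named Rpl, Rps or Rplp plus a number, with pseudogenes and the Rps6k kinases left out. The choice used position and gene symbol and no measured value. It gave 96 of the 61954 peaks in the merged set, at 72 of 75 such genes. For each gene the peak with the highest mean signal over the 4 libraries is called its lead peak, and the other 24 peaks are called further peaks.

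The assay for transposase accessible chromatin (ATAC-seq) was performed on distal forelimb buds at E11.5, with 2 wild-type and 2 Hox13-/- libraries. All embryos were on a mixed C57Bl/6 x 129 background, and the mutants lacked both Hoxa13 (Hoxa13Str allele) and Hoxd13 (Hoxd13lacZ allele), the genes for the HOX13 transcription factors of the future digits. A library was made from 50000 cells, with left and right forelimb buds of 1 embryo combined, so that a replicate is an embryo. A further 2 libraries of proximal buds were not analysed here. The comparison of the genotypes addresses how accessibility depends on HOX13, and the ribosomal protein promoters show what the same comparison gives at genes that every cell uses.

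The cytoplasmic ribosome is built from ribosomal RNA and a fixed set of proteins, those of the large subunit (Rpl genes), of the small subunit (Rps genes) and of the stalk of the large subunit (Rplp genes), which recruits the elongation factors. The proteins are needed in like amounts, and their genes are among the most highly transcribed of any growing cell. Their promoters are short, rich in CpG and usually without a TATA box, and transcription opens at a cytosine within a pyrimidine tract, which places a terminal oligopyrimidine sequence at the end of the mRNA. Loss of single ribosomal proteins is known to give tissue-restricted defects, among them Diamond-Blackfan anaemia in humans and skeletal defects in mice.

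Signal is given as rLog, the regularised log2 read number of a peak, scaled between libraries by the authors. A difference of 1 is a doubling, and rLog is not corrected for peak length, so levels of different genes are compared as rLog minus the log2 of the peak length in kb (rLog per kb). Since rLog carries no read numbers, the depth of each peak is unknown, and counting intervals cannot be given. Differences are Hox13-/- minus wild type with their standard error (SE) from limma, fitted over all 61954 peaks with Benjamini-Hochberg adjustment. A peak is called at an adjusted p under 0.05. Bulk libraries cannot tell a change in accessibility per cell from a change in the mix of cells.

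The promoters of the limb mesenchyme markers Prrx1, Prrx2, Msx1, Msx2 and Twist1 all had peaks, 5 of 5. Twist1 was called lower in Hox13-/- limb buds, with a difference of -0.40 (limma adjusted p = 0.0143), and the other 4 were not called, with differences from -0.15 at Prrx2 to 0.21 at Prrx1. Whether the mix of cells moved with it was not tested. No peak was found at the promoters of the 3 blood markers, 1 of 4 ectoderm markers had one (Epcam, wild-type rLog 2.80), 1 of 3 muscle markers (Myod1, 4.21) and 2 of 3 endothelium markers, of which Kdr was the stronger at 6.69. The forelimb gene Tbx5 had a single weak promoter peak of 3.81. Of the 2 hindlimb genes, Pitx1 had none and Tbx4 had a stronger one than Tbx5, at 4.34, which was called lower in Hox13-/- (difference -0.40, limma adjusted p = 0.0143). At the Hoxd13 start, wild-type rLog was 4.06 and 4.17 against 3.70 and 3.50 in Hox13-/- limb buds, a difference of -0.52 (limma adjusted p = 6.1e-04). A second Hoxd13 promoter peak, with its midpoint at -276 bp from the start, had 4.35 and 4.34 against 3.99 and 4.17 and was not called (difference -0.26, limma adjusted p = 0.137). At the Hoxa13 start it was 5.71 and 5.95 against 5.66 and 5.84, a difference of -0.08 (limma adjusted p = 0.71). A promoter peak does not show whether the coding sequence is deleted, so these values do not test the genotype.

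Promoter sequences are shown first for the genes at the ends of the range. They are Rps19, Rpl13a and Rps21 with the highest wild-type rLog, Rpl35a, Rpl38 and Rpl6 with the lowest among genes with an entry, Rpl41 with the most negative genotype difference, and Rpl24 with the most positive. Each runs from 100 bases before to 20 bases from the transcript start, 5' to 3' on the strand of the gene, from the RefSeq promoter table (GRCm38.p6, the assembly of mm10), which held 52 of the 72 genes. Capitals mark CCGGAAG, the core bound by ETS factors, AAGATGGC, bound by YY1, the palindrome bound by BANP, CACGTG, the E-box, GGGCGG, bound by Sp1, and TATAAA, each on either strand, together with a run of at least 5 pyrimidines that opens with C near the start.
Rps19, chr7:24884492-24884611, plus strand: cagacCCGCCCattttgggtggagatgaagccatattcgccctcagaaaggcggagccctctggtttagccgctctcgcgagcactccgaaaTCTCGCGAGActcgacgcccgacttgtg
Rpl13a, chr7:45128726-45128845, minus strand: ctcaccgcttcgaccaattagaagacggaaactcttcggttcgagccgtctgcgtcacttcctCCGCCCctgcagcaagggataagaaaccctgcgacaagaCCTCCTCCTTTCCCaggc
Rps21, chr2:180257279-180257398, plus strand: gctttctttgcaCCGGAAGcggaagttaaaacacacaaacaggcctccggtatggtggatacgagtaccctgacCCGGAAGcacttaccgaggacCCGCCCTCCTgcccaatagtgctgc
Rpl35a, chr16:33056353-33056472, plus strand: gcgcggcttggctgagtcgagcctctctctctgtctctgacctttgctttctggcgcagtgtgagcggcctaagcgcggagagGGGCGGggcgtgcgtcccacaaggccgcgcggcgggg
Rpl38, chr11:114668480-114668599, plus strand: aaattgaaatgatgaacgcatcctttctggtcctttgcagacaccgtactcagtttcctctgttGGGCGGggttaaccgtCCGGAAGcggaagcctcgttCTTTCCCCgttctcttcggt
Rpl6, chr5:121204401-121204520, plus strand: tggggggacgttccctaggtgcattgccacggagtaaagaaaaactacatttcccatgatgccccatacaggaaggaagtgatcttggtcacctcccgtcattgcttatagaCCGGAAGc
Rpl41, chr10:128549149-128549268, minus strand: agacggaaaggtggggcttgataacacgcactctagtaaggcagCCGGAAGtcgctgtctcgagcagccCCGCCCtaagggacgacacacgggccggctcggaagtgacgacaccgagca
Rpl24, chr16:55966175-55966294, plus strand: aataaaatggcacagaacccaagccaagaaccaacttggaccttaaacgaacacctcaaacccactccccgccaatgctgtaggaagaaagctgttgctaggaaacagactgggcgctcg
The BANP palindrome spanned the start of Rps19. A run of 14 pyrimidines opened near the start of Rpl13a. CCGGAAG stood at 2 places upstream of Rps21 and once in each of Rpl38, Rpl6 and Rpl41, whereas the stretch of Rpl24 held none of the letters marked. The Rpl38 stretch lies in a further peak (chr11:114668419-114668637), since the lead peak of that gene lies downstream of the start at chr11:114669040-114669210.

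Over the window from -250 to 50 bases around the start, these letters were counted in the 52 ribosomal protein promoters and in all 19174 windows of autosomal protein-coding genes in the same table. Each ribosomal protein gene gave 1 window, the one nearest its lead peak. The 19174 windows came from 15687 genes, some with several windows, and no peak was required, so the selection is unlike. CCGGAAG was in 20 of 52 (38.5%), against 12.1% of all windows. The BANP palindrome was in 5 of 52 (9.62%) against 0.678%, AAGATGGC in 7.69% against 3.09%, and GGGCGG in 59.6% against 48.3%. TATAAA went the other way, at 5.77% against 12.1%. The shares were closer for CCAAT, bound by NF-Y (30.8% against 37.5%), CACGTG (9.62% against 8.04%) and the NRF1 motif (5.77% against 6.74%). CAATAAA and TCGTAAA, letters of the HOX13 motif, were each in 1 of 52 windows (1.92%), against 3.6% and 0.595%, and CTTTTC on the gene strand was in 17.3% against 10.7%. CCAAT and CAATAAA share letters, so a single stretch can hold both, and apart from CTTTTC both strands were searched. The start itself differed as well. A C at the annotated start followed by 4 further pyrimidines was found in 12 of 52 promoters (23.1%) against 2.24% of all windows, and a run of 5 opening with C within 5 bases of the start in 48.1% against 18.9%. These are shares of letters and not of bound sites.

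Wild-type accessibility was high at the ribosomal protein promoters. The median wild-type rLog was 6.57 over the 96 member peaks, 5.82 over the 19042 other promoter peaks and 4.41 over the 42816 peaks away from start sites. Over the 72 lead peaks, each chosen as the strongest of its gene, it was 6.79 (from 4.94 to 8.87). Member peaks were also longer, with a median length of 460 bp (548 bp at lead peaks) against 374 bp at other promoters, and rLog followed log2 length across lead peaks (Pearson r = 0.86 over 72 peaks of the same libraries, a description). Per kb the medians were 7.55 at member peaks, 7.68 at lead peaks, 7.20 at other promoters and 6.60 away from start sites, and 67 of 72 lead peaks lay above the other promoters' median per kb. The authors had called 76 of 96 member peaks (79.2%) in each of the 4 libraries, among them all 72 lead peaks, whose choice by signal favours this, against 56.9% of other promoter peaks and 31.8% of all peaks. GC content was 60.6% at lead peaks and 63.5% at other promoters, while the ratio of observed to expected CpG was higher, 0.872 against 0.756.

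**Figure D1:**
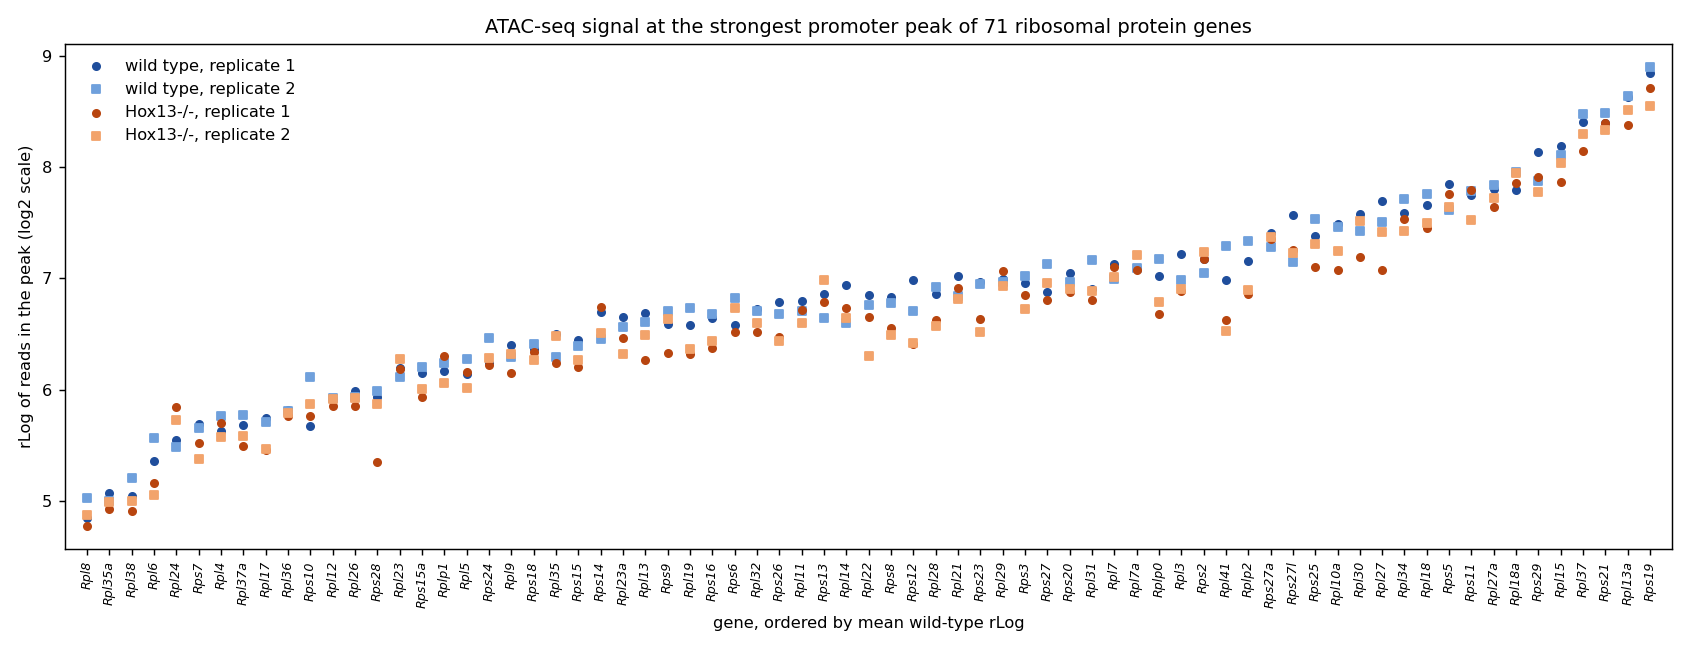
rLog of the lead peak (log2 scale, y axis) of each of 71 ribosomal protein genes with a peak, ordered by mean wild-type rLog (x axis), with a point for each of the 2 wild-type (blue) and 2 Hox13-/- (orange) libraries. Levels run from 4.94 at Rpl8 to 8.87 at Rps19, and the libraries of a gene lie close together against this range.

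The 5 highest wild-type rLog values were 8.87 at Rps19, a Diamond-Blackfan anaemia gene, 8.63 at Rpl13a, a common reference gene of expression assays, 8.44 at Rps21, 8.44 at Rpl37 and 8.15 at Rpl15. These also stood high per kb, with 8.99 at Rps19, 8.74 at Rpl13a, 8.74 at Rps21, 8.44 at Rpl37 and 8.31 at Rpl15. Rpl27 came second to Rps19 per kb, at 8.85. The 5 lowest rLog values were 4.94 at Rpl8, whose protein lines the peptidyl transferase centre, 5.04 at Rpl35a, 5.13 at Rpl38, 5.46 at Rpl6 and 5.52 at Rpl24. Mutation of Rpl38 gives the Tail-short mouse and mutation of Rpl24 the Belly spot and tail mouse, both with skeletal defects. Low rLog went with short peaks in this group, and per kb Rpl6 stood at 7.86, above the median of lead peaks, and Rpl38 at 7.68, close to it. Rpl24 was the lowest of all lead peaks per kb, at 6.85.

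Most genes had a single peak, 52 of 72, while 16 had 2 and 4 had 3. Further peaks were short (median 164 bp) and weak (median wild-type rLog 4.20), and the authors had called 12 of the 96 peaks in 1 library, 5 in 2 and 3 in 3. Some further peaks lay within 1 kb of the start of another gene too, such as those shared with Syngr1 (Rpl3), Sphk2 (Rpl18), Ndst1 (Rps14) and Polr3a (Rps24). These were counted through another transcript start than the one at the lead peak. That of Rpl3 lay at chr15:80091210-80091431, with the lead peak at chr15:80083216-80083851. The member farthest from a start was an Rps14 peak shared with Ndst1, at 852 bp from such a start (wild-type rLog 5.81). The nearest peak beyond the window was at 1134 bp from an Rps12 start (3.90), followed by an Rps18 peak at 1146 bp (6.45). The 3 genes without a peak were Rpl3l, the muscle form of Rpl3, and Rpl10l and Rpl39l, copies known from the testis. The nearest peak midpoint lay 3394 bp from the start of Rpl3l (chr17:24727820-24736143), 22662 bp from Rpl39l (chr16:10170226-10174911) and 834502 bp from Rpl10l (chr12:66283379-66284401).

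Between genotypes, the median ribosomal protein promoter was slightly lower in Hox13-/- limb buds, as was the median of other promoters. The wild-type libraries had a median rLog over lead peaks of 6.85 and 6.75, the Hox13-/- libraries one of 6.64 and 6.59. At the other promoter peaks the medians were 5.83 and 5.83 against 5.73 and 5.72. Over all peaks they were 4.70 and 4.71 against 4.74 and 4.74. The median difference was -0.16 over lead peaks and -0.12 over all 96 member peaks, against -0.11 over other promoters, 0.06 away from start sites and -0.01 over all peaks. It was below 0 at 77 of 96 member peaks against 74.0% of other promoter peaks and 50.8% of all peaks.

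Of the 96 member peaks, 10 were called lower in Hox13-/- and 0 higher (limma). The share called lower over other promoter peaks was 8.5%, and over all peaks 8.31%, so 10 of 96 (10.4%) is near the background. With a correction for GC content the medians were -0.07 over member peaks and -0.03 over other promoters, and 7 of 96 members (7.29%) were called lower against 3.75% of other promoter peaks, a gap that was not tested. The share called higher was 1.5% over other promoter peaks and 11.4% over all peaks. At an unadjusted p under 0.05, limma gave 21 member peaks lower (21.9%) and 1 higher (1.04%), against 19.0% and 2.62% of other promoter peaks and 14.9% and 16.9% of all peaks. No member peak was called beyond 2-fold. Over all peaks 0.224% were so lower and 0.313% higher, and over other promoter peaks 0.0368% and 0.021%. The genotypes were apart, with the wild-type pair above the mutant pair, at 46 of 96 member peaks (47.9%), against 43.5% of other promoter peaks and 29.6% of all peaks. The mutant pair was above the wild-type pair at 4 of 96, against 9.24% of other promoter peaks and 29.7% of all peaks.

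**Figure D2:**
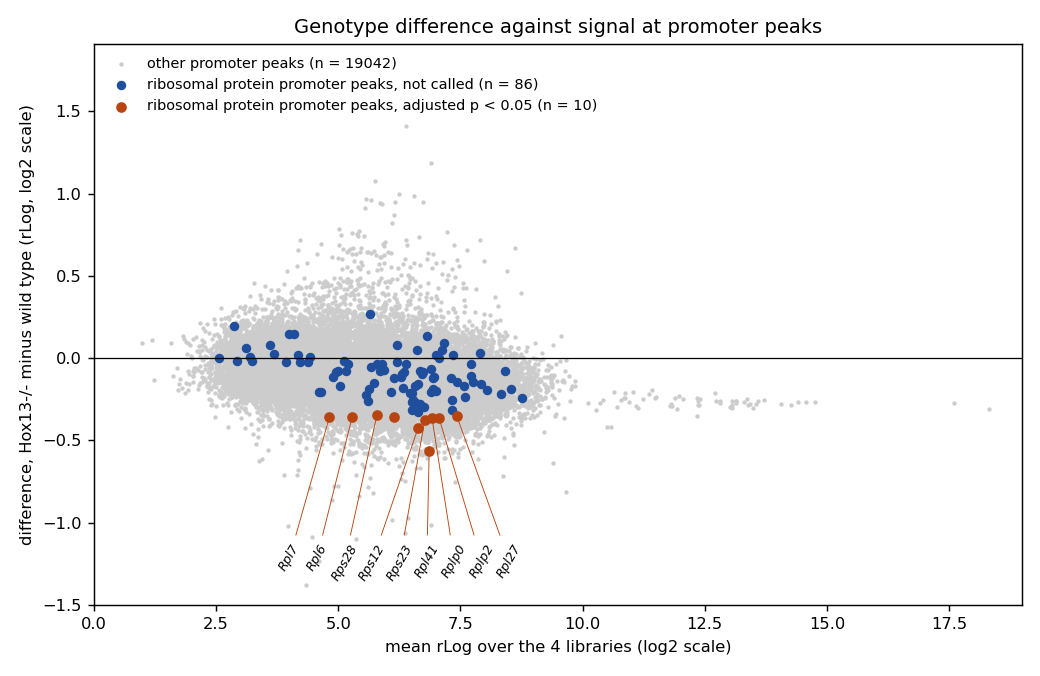
Difference between Hox13-/- and wild type (rLog, log2 scale, y axis) against mean rLog over the 4 libraries (x axis) at 19042 other promoter peaks (grey) and 96 ribosomal protein promoter peaks, of which 86 were not called (blue) and 10 were called (orange, 9 of them named; Rpl7 by its weaker peak). The ribosomal protein peaks lie within the cloud of other promoters and mostly below 0.

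Promoters of like signal gave like median differences. Among peaks with a mean rLog from 6 to 7, the fullest band, the median difference was -0.18 over 37 member peaks and -0.15 over 4103 other promoter peaks, and 13.5% and 13.1% were called lower. From 7 to 8 it was -0.14 over 17 member peaks and -0.16 over other promoters, with 11.8% called lower in both. From 8 to 9 it was -0.20 over 5 members and -0.16 over others, with 0% and 8.29% called lower. From 5 to 6 it was -0.08 over 16 members and -0.11 over others, with 12.5% and 8.98% called lower. Weaker promoters of either kind differed less, with -0.05 against -0.06 from 4 to 5. In that band 8.33% of 12 members and 5.02% of others were called lower. Set against the other promoters of their own band, 39 of the 72 lead peaks fell between the 25th and 75th percentile of the difference, 9 in the lowest 10% and 4 in the highest 10%. Differences varied among member peaks with an SD of 0.15, against 0.18 over other promoters.

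**Figure D3:**
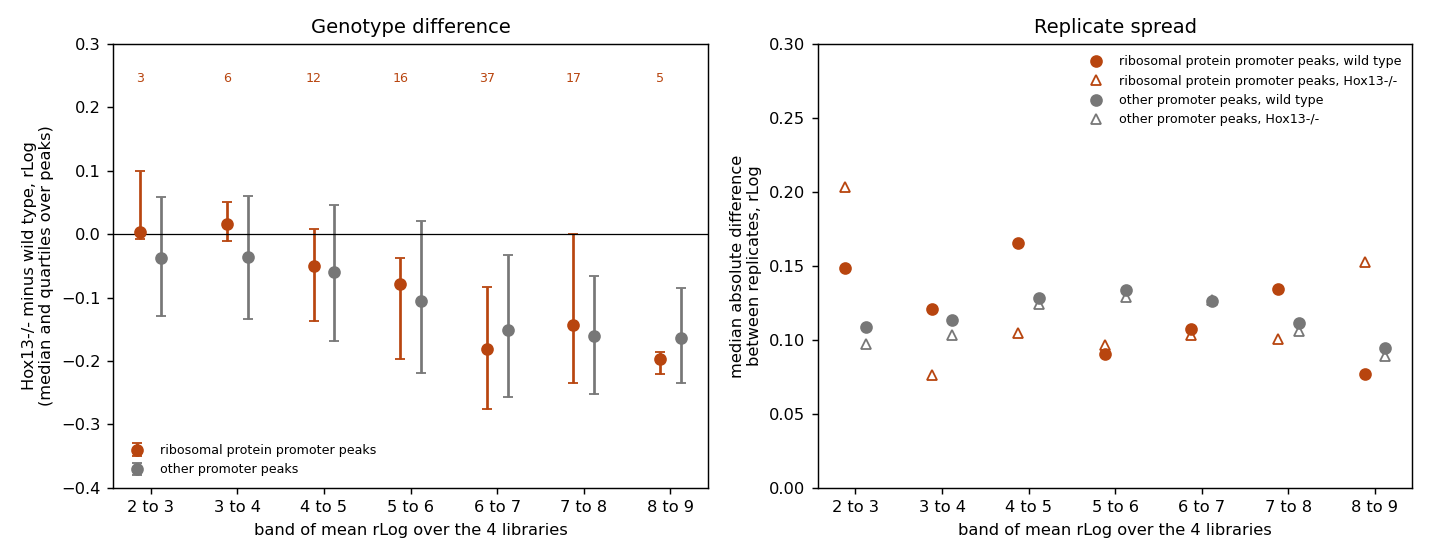
Left, median and quartiles over peaks of the difference between Hox13-/- and wild type (rLog) in bands of mean rLog, for ribosomal protein promoter peaks (orange, number of peaks above) and other promoter peaks (grey). Right, median absolute difference between the 2 replicates of each genotype in the same bands. Both kinds of promoter move from near 0 in weak peaks to between -0.14 and -0.20 in peaks above 6, and no median replicate difference exceeds 0.204.

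Of the 40 large-subunit lead peaks, 3 were called lower in Hox13-/- (7.5%, against 8.5% of other promoter peaks and 8.31% of all peaks), and the median difference of the 40 was -0.15. The lowest was Rpl41 (chr10:128549052-128549470), whose product is the shortest of the ribosomal proteins. Wild-type rLog was 6.99 and 7.29, Hox13-/- rLog 6.63 and 6.53, so the genotypes did not overlap, and it fell by 0.56 (SE 0.127, limma adjusted p = 1.76e-04). Rpl27 had 7.69 and 7.51 against 7.07 and 7.42, and fell by 0.35 (limma adjusted p = 0.029). Rpl6, a weak peak, had 5.36 and 5.57 against 5.16 and 5.05, and fell by 0.36 (limma adjusted p = 0.0366). Among further peaks, the weaker peak of Rpl7 (chr1:16104190-16104453) was called with a difference of -0.36 although its genotypes overlapped. It stood at 4.67 and 5.32 in wild type against 4.69 and 4.58 in the mutant, and the lead peak of the same gene stood at 7.13 and 6.99 against 7.11 and 7.01.

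Rpl24 was the exception in direction among large-subunit genes. It had 5.55 and 5.49 in wild type against 5.85 and 5.72 in the mutant, with both mutant libraries above both wild-type ones, but the difference of 0.27 (SE 0.13) did not pass (limma adjusted p = 0.136). Rpl23 had 6.19 and 6.12 against 6.19 and 6.28. Rpl5 and Rpl11, whose proteins bind MDM2 when ribosome assembly fails, had differences of -0.12 and -0.09, neither past the threshold. Rpl5 stood at 6.14 and 6.28 against 6.16 and 6.02, and Rpl11 at 6.80 and 6.71 against 6.72 and 6.60. Rpl38, known for its part in the translation of Hox mRNAs, had 5.05 and 5.21 against 4.91 and 5.00 at its lead peak (difference -0.17, limma adjusted p = 0.377) and 5.10 and 4.88 against 4.93 and 4.88 at the peak over its start. Just short of the threshold were Rpl22 (-0.33, limma adjusted p = 0.0512), Rpl10a (-0.31, 0.0581) and Rpl19 (-0.31, 0.0641), picked here for that after their values were seen.

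Of the 3 stalk genes, 2 were called lower, where 8.5% of other promoter peaks were. Rplp0, the base of the stalk and a common reference gene, had 7.02 and 7.17 in wild type against 6.68 and 6.79 in the mutant, and fell by 0.36 (limma adjusted p = 0.0266). Rplp2 had 7.15 and 7.33 against 6.86 and 6.90, and fell by 0.37 (limma adjusted p = 0.0246). In both the genotypes were apart. Rplp1, the partner of Rplp2 in the stalk, had 6.17 and 6.24 against 6.31 and 6.06, with overlapping genotypes and a difference of -0.02. With the GC correction neither Rplp0 (difference -0.27, limma adjusted p = 0.130) nor Rplp2 (-0.30, 0.0822) was called. Nor was either called with cyclic loess (-0.31 at both) or with centring on other promoters (-0.26 at both). Without wild-type replicate 2 the differences were -0.29 at Rplp0 and -0.27 at Rplp2, and without wild-type replicate 1 -0.44 and -0.46. Without Hox13-/- replicate 1 they were -0.31 and -0.35, and without Hox13-/- replicate 2 -0.42 and -0.38. Of these fits with fewer libraries, only the one without wild-type replicate 1 called them.

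Of the 29 small-subunit lead peaks, 4 were called lower (13.8%, against 8.5% of other promoter peaks, 13.1% of those with a mean rLog from 6 to 7, and 8.31% of all peaks), and the median difference of the 29 was -0.16. Rps12 had 6.98 and 6.70 in wild type against 6.41 and 6.42 in the mutant, and fell by 0.43 (limma adjusted p = 0.0073). Rps23, whose protein lies at the decoding centre, had 6.97 and 6.95 against 6.64 and 6.52, and fell by 0.38 (limma adjusted p = 0.0197). Rps28, a Diamond-Blackfan anaemia gene, rested on a single low mutant library, with 5.94 and 5.99 against 5.36 and 5.87 (limma adjusted p = 0.0394). Without Hox13-/- replicate 1 its difference was -0.09, and it was not called.

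The small-subunit genes with the most positive differences were Rps13 (0.13), Rps2 (0.09) and Rps14 (0.05), none past the threshold. Rps14 had 6.70 and 6.46 in wild type against 6.74 and 6.51 in the mutant. Rps18, a common reference gene, differed by -0.08, and so did Rps6, the substrate of the S6 kinases, and Rps10. At Rps10 the wild-type libraries themselves stood at 5.67 and 6.11. Rps27l, a p53 target, had 7.57 and 7.15 against 7.26 and 7.23, with overlapping genotypes. At Rps19 the difference was -0.24 (SE 0.12, limma adjusted p = 0.141), with both mutant libraries (8.71 and 8.55) below both wild-type ones (8.85 and 8.90).

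A lead peak that also lay within 1 kb of the start of another gene was found at 15 genes, and 1 of these, Rps28, was called. Their median difference was -0.08, against -0.17 over the 57 lead peaks of a ribosomal protein gene alone, of which 8 were called. These are 6.67% and 14%, against 8.5% of other promoter peaks and 8.31% of all peaks. The difference between the shared and unshared peaks was not tested. Promoters with and without CCGGAAG had median differences of -0.16 (20 genes) and -0.19 (32 genes). Those with GGGCGG had a median wild-type level of 7.78 rLog per kb (31 genes), and those without it 7.53 (21 genes). For CCGGAAG the levels were 7.78 with it and 7.54 without, and for AAGATGGC (4 genes) 7.80 and 7.67. The other way went the BANP palindrome (5 genes), at 7.58 with and 7.72 without, and CACGTG (5 genes), at 7.56 and 7.72. All of these are descriptions.

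Replicates differed at ribosomal protein promoters about as much as at other promoters. The median absolute difference between the wild-type libraries was 0.122 over member peaks and 0.121 over other promoter peaks, and between the Hox13-/- libraries 0.103 and 0.114. Across the 72 lead peaks the 2 wild-type libraries correlated with r = 0.982 and the 2 Hox13-/- libraries with r = 0.981, over peaks that share library and depth. The largest replicate differences were 0.517 at Rps28 between the Hox13-/- libraries and 0.654 at the weaker Rpl7 peak between the wild-type libraries. The genotype difference exceeded both replicate differences at 40 of 96 member peaks (41.7%), among them 37 of 72 lead peaks, against 39.0% of other promoter peaks and 46.3% of all peaks.

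With 2 libraries per genotype the calls depended on single libraries and on the scaling. Rpl41 was the only member called in all 14 alternative fits, with differences from -0.71 to -0.41. Rps12 was called in 11, Rpl6 and Rps23 in 10, Rpl27 in 9, the weaker Rpl7 peak in 8, and Rplp0, Rplp2 and Rps28 in 7. The number of members called lower was 5 without wild-type replicate 1, 4 without wild-type replicate 2, 3 without Hox13-/- replicate 1 and 4 without Hox13-/- replicate 2, fits with fewer libraries. As shares of the 96 members these are 5.21%, 4.17%, 3.12% and 4.17%, and over other promoter peaks the shares called lower in the same fits were 5.81%, 4.51%, 3.74% and 3.92%. Without Hox13-/- replicate 1, Rpl27 differed by -0.18, and without wild-type replicate 2 the weaker Rpl7 peak differed by -0.03. When libraries were centred on the median of the other promoter peaks, 2 members were called lower (Rpl41 and Rps12). This is 2.08%, against 2.63% of other promoter peaks. In the same fit 2 of 96 members were called higher (Rpl24 and a weak further peak of Rpl22). Beside them, 716 of the 19042 other promoter peaks and 12711 of all 61954 peaks were called higher. The median difference of member peaks became -0.01.

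**Figure D4:**
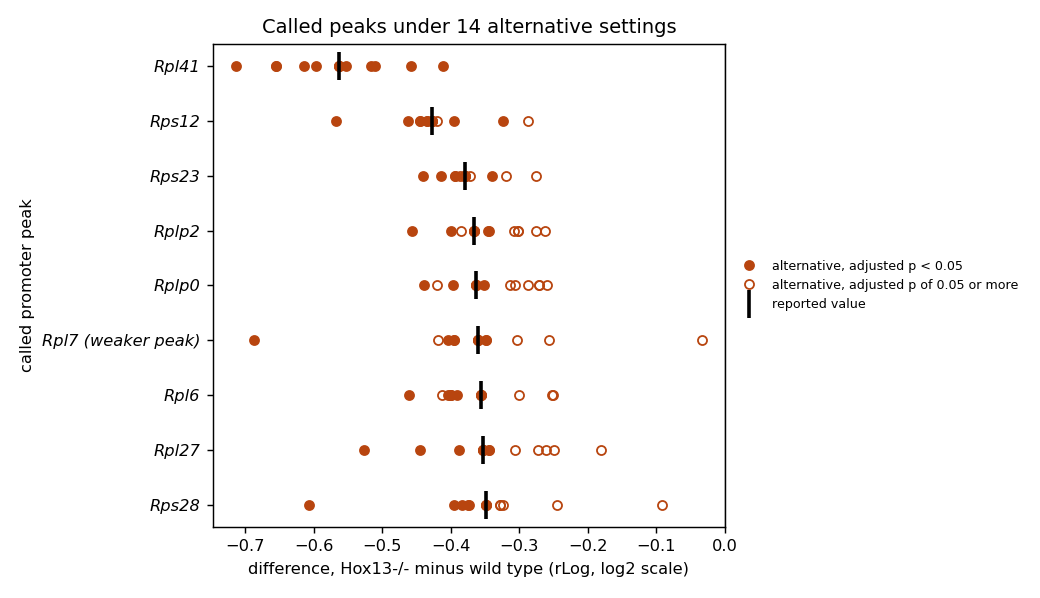
Difference between Hox13-/- and wild type (rLog, log2 scale, x axis) at 9 of the 10 called ribosomal protein promoter peaks (y axis) as reported (black bar) and under 14 alternative settings (filled where called at an adjusted p under 0.05, open where not). Every value is below 0, and at Rpl41 alone every point is filled.

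Genes of neighbouring functions had similar median differences. The 8 ribosomal proteins under other names, among them Rpsa, Fau and Rack1, all had a promoter peak with a difference below 0 (median -0.19), and 0 were called lower or higher by limma, with 0 at an unadjusted p under 0.05. Of 8 elongation factor genes with a peak, of 9 listed, 1 was called lower, Eef2, which moves the ribosome along the mRNA. It stood at 6.99 and 7.04 in wild type against 6.60 and 6.61 in the mutant (limma adjusted p = 0.0112). Of 38 initiation factor genes, 5 were called lower and 0 higher, with a median difference of -0.14. The largest falls were 0.51 at Eif3m, a subunit of the initiation factor that binds the small subunit, and 0.51 at Pabpc1, the poly(A)-binding protein. Of 77 mitochondrial ribosomal protein genes with a peak, of 78, 12 were called lower and 0 higher. Their median difference was -0.17, and Mrpl38 fell most, by 0.61.

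Ribosome assembly factors were the list with a call in each direction. Of 72 with a peak, of 73, 9 were called lower and 1 higher, and the median difference was -0.14. The gene called higher was Rpf2, which helps to bring Rpl5 and Rpl11 into the large subunit. Its promoter peak had 5.66 and 5.25 in wild type against 6.09 and 6.07 in the mutant, a difference of 0.62 (SE 0.13) with the genotypes apart. Sbds, which helps to release the large subunit for translation, had 5.93 and 6.00 against 5.34 and 5.45, and fell by 0.57. Npm1, a nucleolar chaperone, fell by 0.33 and Ubtf, a factor for ribosomal RNA transcription, by 0.39. The shares called lower were 12.5% of elongation factors, 13.2% of initiation factors, 12.5% of assembly factors and 15.6% of mitochondrial ribosomal proteins, all above the 8.5% of other promoter peaks, and 0% of the ribosomal proteins under other names. These shares use the strongest peak of each gene, and 13.1% of other promoter peaks with a mean rLog from 6 to 7 were called lower. No list was tested as a set.

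**Figure D5:**
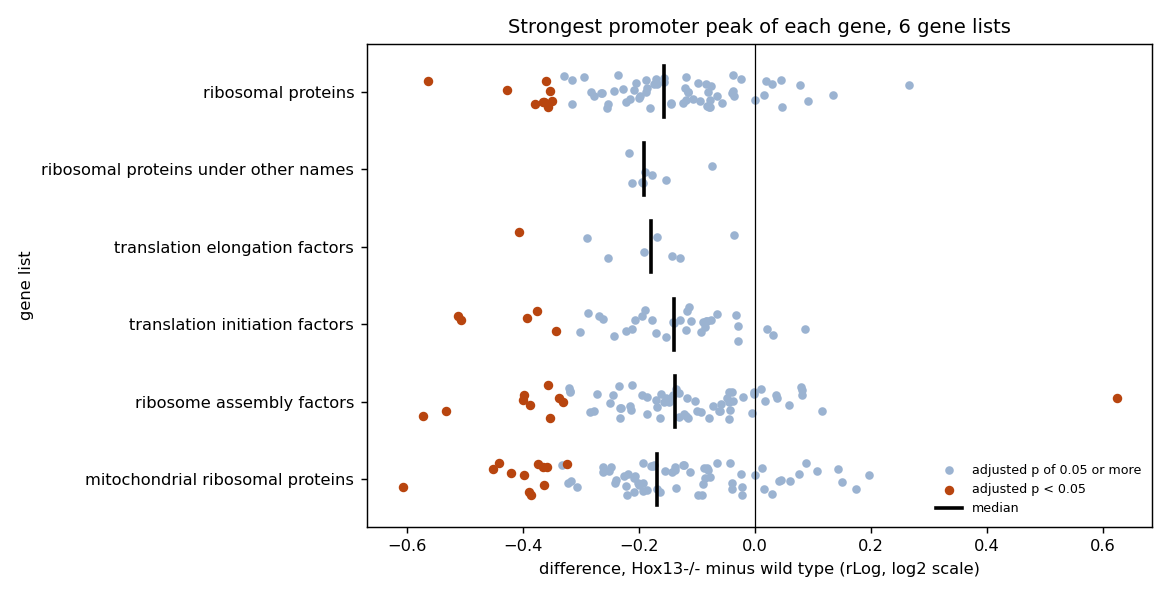
Difference between Hox13-/- and wild type (rLog, log2 scale, x axis) at the strongest promoter peak of each gene in 6 gene lists (y axis), with called genes in orange and the median of each list as a black bar. All 6 medians lie between -0.19 and -0.14, and the only called point above 0 is Rpf2.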

How the data were processed

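ATAC-seq values of 4 distal forelimb libraries (2 wild type, 2 Hox13-/-) were used. Per the study's methods and the submitters' processing notes, paired-end reads were aligned by the authors with bowtie2 2.3.1 (mm10), and peaks were called in each library with MACS2 2.1.1.20160309 at p 1e-05 and merged with HOMER 4.9.1. Handling of duplicate reads, blacklisted regions and the Tn5 offset is not given in the sources used here for these libraries. The rLog values deposited by the authors, who computed them with DESeq2, are log2 read numbers corrected by size factors. They are shrunk, which makes differences of weak peaks smaller. A text column of the deposited table names the libraries in which each peak was called. Another 3 deposited columns hold the authors' log2 fold change, p-value and adjusted p-value and were not used. The depth per peak is not known from rLog values.

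Start sites were those of GENCODE M21 transcripts of autosomal protein-coding genes. Differences were fitted over all 61954 peaks with limma 3.58.1 (R 4.3.3), with a variance trend, two-sided, and Benjamini-Hochberg adjustment. With 6 labellings of 4 libraries, an exact two-sided permutation test cannot go below p = 0.333. The fit was also run on simulated data, and no result of that run is given here. Promoter sequences were read from the RefSeq promoter table (GRCm38.p6) and matched against the genome.

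Named genes were the 5 highest and 5 lowest in wild-type rLog, the 5 most negative and 5 most positive differences, the 3 with the largest replicate difference, members beyond 2-fold, genes without a peak, and 14 genes picked for what is known of them. The other called peaks and the called genes of the lists were picked with their values in view. Some genes are not reported here by name, and counts include them. The members and lists were chosen with earlier results of these data known. Alternatives covered the scaling, variance model, filters on low values, GC content, replicate block, leaving out each library, the member rule and the threshold. Replicates with the same number did not deviate together across peaks (r = -0.0106), so the fit has no block.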

Additional observations from a re-analysis of the deposited data

How the results depend on the processing

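The median difference of member peaks stayed below 0 in all alternatives, from -0.16 to -0.01. Centring on other promoter peaks moved the median of all peaks from -0.01 to 0.10 and the calls over all peaks to 2509 lower and 12711 higher, from 5146 and 7040, with 2 members lower, 2 higher and a member median of -0.0120. Its share of calls that were lower was 16.5%, against 42.2% as reported and 53.1% with centring on all peaks. Under it, uncalled differences changed sign at Rpl11 (0.0092), Rpl35a (0.0274), Rplp1 (0.0798), Rps10 (0.0268), Rps18 (0.0198), Rps21 (0.0249) and Rps6 (0.0245), and Rps21 did so under quantile (0.0183) and cyclic loess normalization (0.0655). GC correction, with or without the replicate block, gave 7 members lower and 1 higher (a weak Rpl22 peak). Without the block, 313 of the 19042 other promoter peaks were called higher. The correction also turned uncalled differences at Rpl11 (0.0118), Rpl35a (0.0201), Rpl5 (0.0056), Rplp1 (0.0030), Rps10 (0.0634), Rps21 (0.0240) and Rps6 (0.0293). The cause of these shifts was not tested. The replicate block alone left 10 members lower and 0 higher, the same genes as reported, with 4967 and 7013 calls over all peaks, and the labels do not say that numbers pair embryos.

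Keeping the upper 50% of peaks gave 3268 calls lower, with fewer peaks tested. A 2-fold threshold left 139 lower and 194 higher over all peaks and 0 members lower. An adjusted p under 0.01 left 2 members lower (Rpl41 and Rps12). The share of other peaks at that threshold is not given here, so these 2 are not set against a background. Leaving out each library in turn gave 3 to 5 members lower and 0 higher, 2865 to 3552 calls lower and 4650 to 5008 higher over all peaks, where the lone library of a genotype is assumed to vary like the others. Uncalled differences changed sign within these ranges at Rps27l (-0.3304 to 0.0932), Rplp1 (-0.15 to 0.10), Rps10 (-0.30 to 0.14), Rps14 (-0.0714 to 0.1659) and Rps6 (-0.2035 to 0.0446). The median wild-type rLog, 6.57 as reported, was 6.65 within 500 bp (89 peaks), 6.65 with only gene ends as starts (87 peaks) and 6.79 with 1 peak per gene. Of 392 values for named genes, 323 kept their direction and side of the threshold, 37 lost a call, 1 gained one (Rpl24) and 31 changed sign. With 2 embryos per genotype and rLog values alone, small differences at single promoters cannot be resolved.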

Other observations

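No ribosomal protein promoter reached a mean rLog of 10, but 60 of the 19042 other promoter peaks did, and all 60 of these had a difference below 0. Their differences were tightly grouped, with a median of -0.268 and quartiles of -0.285 and -0.249, and 37 of the 60 were called lower by limma. Over all peaks, 115 had a mean rLog of at least 10, of which 71 lay on chromosome 9. The difference was below 0 at 100 of the 115. Bases marked as repeats in the RefSeq genome made up over 50% of the peak at 89 of the 115 and at all 60 promoter peaks, against 0.609% of the 19042 other promoter peaks and 0 of the 96 ribosomal protein promoter peaks. Whether such regions were removed before peaks were called is not given in the sources used here, and the part of this in the difference was not tested. The median replicate difference of the 115 peaks was 0.396, against 0.126 at the ribosomal protein promoters.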
